A study of Chlamydomonas reinhardtii with 4 samples.

Results

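The 300 kb stretch of each chromosome with the fewest wild-type H3K27ac regions was examined across 4 ChIP-seq libraries of the unicellular green alga Chlamydomonas reinhardtii. Both wild-type (WT) peak lists were pooled and overlapping peaks merged, a 300 kb window was moved along chromosomes 1 to 17 in steps of 50 kb, and the window with the fewest WT regions by midpoint was kept, 1 per chromosome (the lowest start where windows tied). The members are all peaks with a midpoint in these 17 windows. They numbered 1578 of the 60364 peaks of the 4 lists, of which the dnmt1 lists held 448 of 14986 (mt+) and 458 of 15323 (mt−), and the WT lists 339 of 14990 (mt+) and 333 of 15065 (mt−). Merged over the lists, the peaks formed 15521 regions, with 15343 on numbered chromosomes and 469 in the windows.

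A DNMT1 knockout (dnmt1) was profiled in 2 strains, the mating type plus (mt+) strain CC-5155 and the mating type minus (mt−) strain CC-5325, beside WT cells of each strain. All cells were in the vegetative stage, grown in Tris-acetate-phosphate medium under continuous light. Strain and mating type changed together, there was 1 library per group, and no source used here gives the allele or the number of clones behind each knockout. Pooled over the strains, 2 knockout libraries against 2 WT libraries cannot give a two-sided exact permutation p below 0.333, and the WT counts also chose the windows. No test was therefore run, and every comparison describes these libraries, with intervals that cover counting error only. Read depth is unknown because the peak lists give no counts, and where a list has no peak, the mark may still be present below the threshold of peak calling.

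H3K27ac, acetylation of histone H3 at lysine 27, marks the start regions of transcribed genes and active enhancers. DNMT1 belongs to the family of enzymes that copy cytosine methylation onto newly made DNA, and methylated DNA is commonly found over silent repeats. No gene, repeat or centromere annotation in the build of the lists was used here, and so neither the sequence nor the genes under the windows were examined.

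The windows held 1 to 30 WT regions with a median of 22, whereas the median window of each chromosome held 31 to 44. These counts chose the windows and are given as a description. The poorest was that of chromosome 15, at 4850 to 5150 kb, with 1 WT region. The richest was that of chromosome 2, at 2750 to 3050 kb, with 30. The next-poorest window of each chromosome that did not overlap the chosen one held 2 to 32 WT regions with a median of 28, and 5 of the chosen windows tied with another window at the minimum. None of the 17 lay at a chromosome end. Their distance from the nearer end, taken as 0 or the last WT peak, ran from 500 kb on chromosome 14 to 4300 kb on chromosome 6, and their centres lay between 14.0% and 88.6% of the way along the chromosome.

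Peaks found in both knockouts and in neither WT library were gathered in these windows. Of the 469 member regions, 107 were gained, that is, present in both knockout libraries but in neither WT list (22.8%, exact 95% Clopper-Pearson interval 19.1 to 26.9). Over all numbered chromosomes 160 of 15343 regions, or 1.04%, were gained. The windows make up 5.1 Mb of 112 Mb (4.55%) and held 66.9% of the gained regions of numbered chromosomes. That is 21.0 gained regions per Mb in the windows and 0.496 per Mb elsewhere. Because the windows were chosen for few WT peaks, a region that WT lacks is favoured there by construction, and these shares support nothing by themselves.

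The reverse pattern was rare in the windows and over all numbered chromosomes, and windows chosen for few WT regions leave less room for it. Lost regions, present in both WT lists but absent from both knockouts, numbered 2 of 469 (0.426%, exact interval 0.0517 to 1.53), against 0.241% over all numbered chromosomes. Regions with a peak in all 4 libraries numbered 319 (68.0%, exact interval 63.6 to 72.2), where the share over all numbered chromosomes was 92.8%. Regions of dnmt1 mt+ alone numbered 8 (1.71%, against 0.228% over all numbered chromosomes) and those of dnmt1 mt− alone 15 (3.20%, against 0.952%). The remaining 18 members fell into 6 small classes. Regions in all but WT mt− numbered 7 (1.49%, against 0.469% over all numbered chromosomes), those in all but dnmt1 mt+ 4 (0.853%, against 1.04%) and those in all but WT mt+ 3 (0.640%, against 0.372%). A further 2 were in WT mt+ alone (0.426%, against 0.528%), 1 in dnmt1 mt+ and WT mt− (0.213%, against 0.124%) and 1 in both mt− libraries. With a peak in both mt+ libraries alone there were 0 of 469 members, which allows a share of up to 0.783% (exact interval; 0.0978% over all numbered chromosomes), and 1 member had it in both mt− libraries alone (0.213%, exact interval 0.0054 to 1.18; 0.821% over all numbered chromosomes). Both intervals hold the share over all numbered chromosomes, but they cover counting error only, and no agreement is concluded from them.

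**Figure D1:**
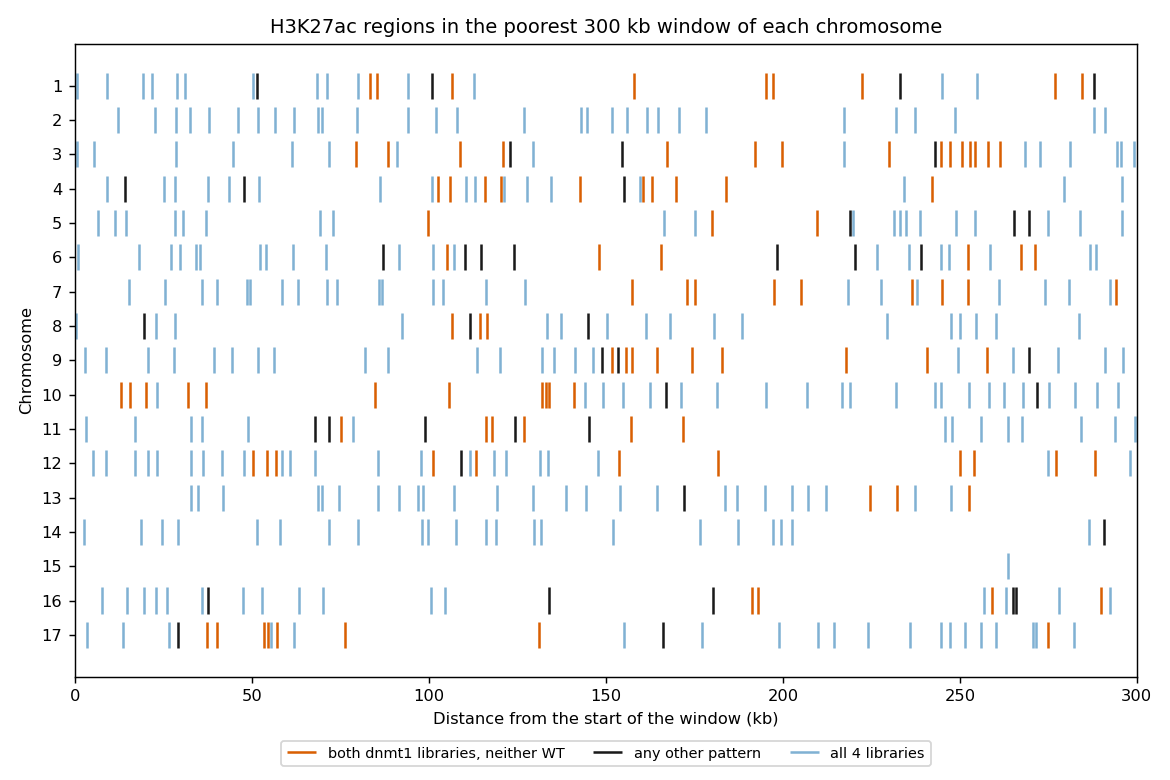
Position of the 469 H3K27ac regions in the poorest 300 kb window of each of the 17 chromosomes, as distance from the start of the window in kb (x axis), with 1 row per chromosome. Orange lines are the 107 gained regions, present in both knockouts but in neither WT list, blue lines the 319 regions of all 4 libraries and black lines the other patterns; orange lines appear in 14 rows and are missing from chromosomes 2, 14 and 15.

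Gained regions were present in 14 of the 17 windows, each of which had at least 3. The window of chromosome 3, at 6900 to 7200 kb, held 31 (dnmt1 mt+) and 32 (dnmt1 mt−) peaks, against 16 in each WT library, and 15 of its regions were gained. On chromosome 10, at 3600 to 3900 kb, there were 35 and 33 peaks in dnmt1 mt+ and dnmt1 mt−, against 22 and 23 in WT mt+ and WT mt−, with 11 gained regions. Chromosome 12 had as many gained regions, 11, at 6600 to 6900 kb, with 34 peaks in each dnmt1 library, against 23 in WT mt+ and 22 in WT mt−. In these windows both knockouts had more peaks than both WT libraries. The WT counts chose the windows, so low WT counts were favoured here and in the windows below. How many windows outside the chosen ones separate in this way was not counted.

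The window of chromosome 4, at 750 to 1050 kb, had 10 gained regions, with 27 peaks in dnmt1 mt+ and 30 in dnmt1 mt−, against 18 in WT mt+ and 19 in WT mt−. A group of 3 windows had 9 gained regions each. At 1000 to 1300 kb of chromosome 1 the knockouts had 24 (mt+) and 26 (mt−) peaks, against 15 in each WT library. Chromosome 7 at 2900 to 3200 kb held 33 peaks in each dnmt1 library, against 24 in WT mt+ and 23 in WT mt−. For chromosome 9 at 4100 to 4400 kb the counts were 32 in each dnmt1 library and 22 in each WT library. In each of these 4 windows both knockouts had more peaks than both WT libraries, which the choice on WT counts favours.

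Smaller numbers were gained elsewhere. Chromosome 17 at 6000 to 6300 kb had 8 gained regions, with 30 and 29 peaks in dnmt1 mt+ and dnmt1 mt−, against 22 in each WT library. Chromosome 6 at 4300 to 4600 kb had 6, with 31 and 32 peaks in the knockouts and 22 in each WT library. Chromosome 11 at 2800 to 3100 kb also had 6, with 22 and 21 peaks in dnmt1 mt+ and dnmt1 mt−, against 16 and 15 in WT mt+ and WT mt−. Here too each knockout lay above each WT library, which the choice on WT counts favours.

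Chromosome 16 at 3250 to 3550 kb had 4 gained regions, with 22 and 25 peaks in dnmt1 mt+ and dnmt1 mt−, against 18 and 16 in WT mt+ and WT mt−. There were 3 gained regions each in the windows of chromosomes 5, 8 and 13. At 1550 to 1850 kb of chromosome 5, the knockouts had 24 (mt+) and 25 (mt−) peaks, against 22 and 21 in WT mt+ and WT mt−. At 2600 to 2900 kb of chromosome 8, they had 21 and 23, against 19 and 18. At 4100 to 4400 kb of chromosome 13, they had 29 and 30, against 25 and 26. In these windows each knockout again lay above each WT library, which the choice on WT counts favours. The knockouts exceeded WT of the same strain by 2 to 9 peaks.

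The other 3 windows had no gained region. The chromosome 2 window had 30 peaks in every library, all of them in regions common to the 4 libraries. On chromosome 14, at 500 to 800 kb, dnmt1 mt+ and dnmt1 mt− had 22 peaks each, against 24 in WT mt+ and 22 in WT mt−. The chromosome 15 window had a single peak in every library, at chromosome 15, 5113386 to 5113796, with a fold enrichment over the control, as the authors' peak caller gave it, of 3.03 (mt+) and 3.91 (mt−) in the knockouts, against 3.76 (mt+) and 3.72 (mt−) in WT. The 263385 bp before it had no WT peak and no dnmt1 peak. The lowest and the highest WT count among the 17 windows thus both came without a gained region.

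**Figure D2:**
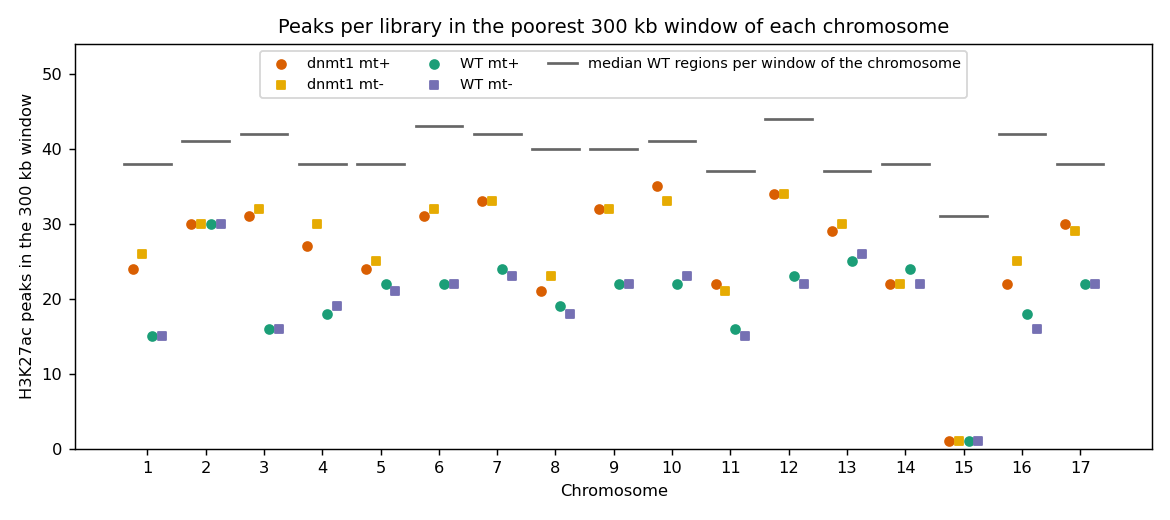
H3K27ac peaks per library (y axis, count) in the poorest 300 kb window of each chromosome (x axis), with orange circles for dnmt1 mt+, yellow squares for dnmt1 mt−, green circles for WT mt+ and purple squares for WT mt−, and grey bars for the median number of merged WT regions over all windows of the chromosome. The dnmt1 points lie above the WT points in 14 windows, level with or below them on chromosomes 2, 14 and 15, and below the grey bar in all 17. The WT counts chose the windows, which favours WT points that lie low, and how many other windows separate in this way was not counted.

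Summed over the windows, peaks covered 7.71% of the bases in dnmt1 mt+ and 7.90% in dnmt1 mt−, against 5.61% in WT mt+ and 5.60% in WT mt−. Outside the windows the shares were 11.6%, 12.1%, 11.8% and 12.0% in the same order of libraries. The dnmt1 lists had 87.8 (mt+) and 89.8 (mt−) peaks per Mb in the windows, against 66.5 and 65.3 in the WT lists of those strains. Outside they had 135 and 138 per Mb, against 136 and 137 in WT. The windows were thus still poor in the knockouts. With the dnmt1 lists pooled and merged, the windows held 1 to 35 regions with a median of 30, fewer than the median window of their own chromosome in all 17 cases. In 6 of the 17 no other window of the chromosome had fewer dnmt1 regions, while in the other 11 between 1 and 13 windows had fewer.

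To count gains in libraries that had no part in choosing the windows, each strain was examined in windows chosen on the WT list of the other strain. In windows chosen on WT mt+ alone, 129 of 457 dnmt1 mt− peaks had no overlapping WT mt− peak (28.2%, exact interval 24.1 to 32.6), where the share over all numbered chromosomes was 2.89%. Outside those windows it was 309 of 14715 (2.10%). In the other direction, with windows chosen on WT mt− alone, 122 of 451 dnmt1 mt+ peaks had no overlapping WT mt+ peak (27.1%, exact interval 23.0 to 31.4), where the share over all numbered chromosomes was 1.94% and that outside was 165 of 14375 (1.15%). Both choices kept 16 of the 17 windows, and the WT lists resemble each other, so these windows are not a separate draw of the genome. Gains therefore stay favoured by construction in both, and these shares are a description too.

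Losses in the same windows stayed near the background. In windows chosen on WT mt+, 4 of 334 WT mt− peaks lacked a dnmt1 mt− partner (1.20%, exact interval 0.327 to 3.04), with 1.37% over all numbered chromosomes. In windows chosen on WT mt−, 8 of 340 WT mt+ peaks lacked a dnmt1 mt+ partner (2.35%, exact interval 1.02 to 4.58), with 2.32% over all numbered chromosomes. In the windows chosen on both WT lists, 120 of 448 peaks were gained in dnmt1 mt+ and 129 of 458 in dnmt1 mt−, and 8 of 339 were lost from WT mt+ and 3 of 333 from WT mt−.

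Choosing the windows on the dnmt1 lists works against gains in the way that choosing on WT works for them. Windows chosen on the pooled dnmt1 lists held 22 gained regions of 435 (5.06%), in 4 of 17 windows, and 8 of them overlapped the window chosen on WT. The next-poorest window of each chromosome, a comparison added after the counts were seen, held 2 gained regions of 464 (0.431%, against 1.04% over all numbered chromosomes), and 15 of these 17 windows had 0. These windows were less poor, with 451 WT regions in all, where the chosen windows had 342. On chromosome 5 the next-poorest window had 24 WT regions and 0 gained, beside 22 WT regions and 3 gained in the poorest. On chromosome 4 it had 25 and 0, beside 19 and 10 in the poorest. Chromosomes 14 and 15 went the other way. The next-poorest window of chromosome 14 had 25 and 1, beside 23 and 0 in the poorest. That of chromosome 15 had 2 and 1, beside 1 and 0 in the poorest.

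**Figure D3:**
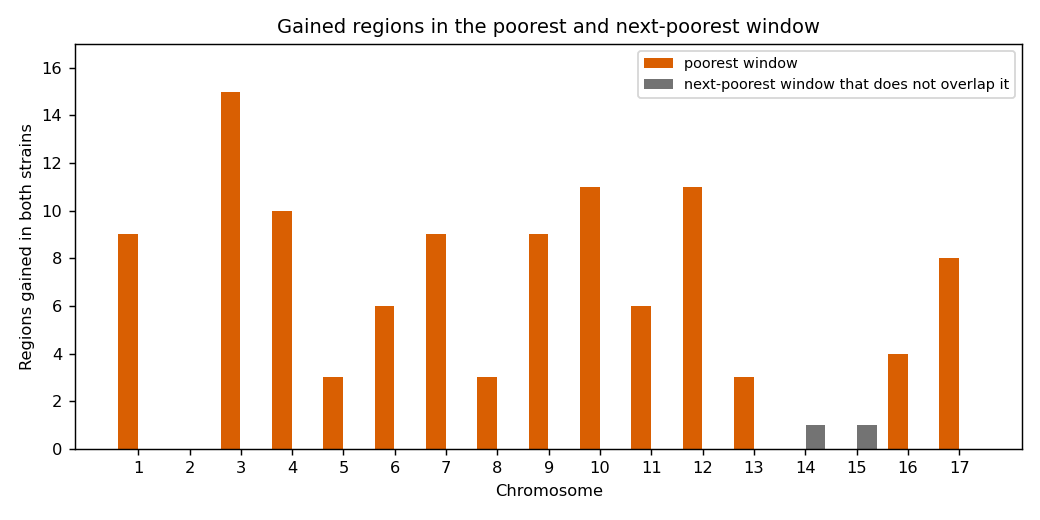
Gained regions, present in both knockouts but in neither WT list (y axis, count) by chromosome (x axis), in the poorest 300 kb window (orange, left bar) and in the next-poorest window that does not overlap it (grey, right bar). The orange bars sum to 107 and reach 15 on chromosome 3, and the grey bars sum to 2, with 1 on chromosome 14 and 1 on chromosome 15.

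The density of gained regions was lower just beyond the window borders, which the choice on WT counts placed, than within them. Over all numbered chromosomes outside the windows it was 0.496 per Mb. Within 150 kb of the window centre it was 21.0 per Mb, from 150 to 300 kb it was 1.18 per Mb (6 regions), from 300 to 450 kb it was 0.588 per Mb (3 regions), and from 450 to 600 kb there were 0. Farther out it was 1.00 per Mb from 600 to 750 kb (5 regions), 0.629 per Mb from 750 to 900 kb (3 regions) and 0.448 per Mb from 900 to 1050 kb (2 regions). Regions of all 4 libraries had 62.5 per Mb within 150 kb of the centre and 132 per Mb from 150 to 300 kb. In 11 of the 14 windows with gained regions no other 300 kb window of the chromosome held more of them, and the exceptions were chromosomes 5, 10 and 12. On chromosomes 10 and 12 a shifted window held 12 in place of 11. The chromosome 5 maximum of 7 lay in a window from 3350 kb, away from the chosen one. Chromosomes 3, 4, 9 and 13 had every gained region in the chosen window. Of the 53 gained regions outside the windows, 16 lay on chromosome 15, 8 on chromosome 5 and 6 on chromosome 12.

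**Figure D4:**
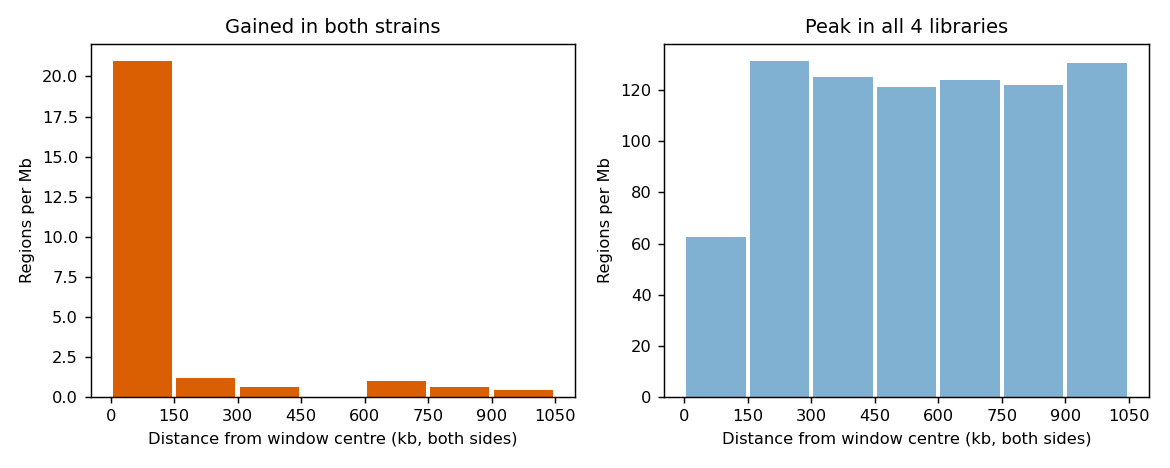
Density of regions (y axis, regions per Mb) by distance from the centre of the 17 windows (x axis, kb, both sides, bins of 150 kb), for regions gained in both strains (left) and regions of all 4 libraries (right). The first bin is the window itself, with 21.0 gained regions per Mb against 1.18 in the next bin, and 62.5 regions of all 4 libraries per Mb against 132.

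The spacing of the gained regions is given as a description, because windows with few WT regions and many gained ones favour short distances and unbroken runs. Of the 107, 68 (63.6%) had another gained region within 10 kb and 104 (97.2%) within 50 kb, with a median distance of 6713 bp from edge to edge. Of the 52 gained regions outside the windows that share their chromosome with another, 38.5% had one within 50 kb. The nearest region of all 4 libraries lay at a median of 10186 bp from a gained member, and regions of all 4 libraries in the windows lay at a median of 4386 bp from the nearest of their own kind. Counting gained regions that follow each other with no region of a WT library between them gave 46 runs. Of these, 19 were single regions, 15 were pairs and 12 held 3 or more, with 58 gained regions in the last class. The longest runs had 8 members, at chromosome 10, 3631213 to 3741540, and at chromosome 3, 7129486 to 7161691. Next came a run of 7 at chromosome 9, 4255425 to 4341227.

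Of the 107 gained regions 48 lay in the longest stretch of their window without a WT peak. That stretch ran from 38521 bp on chromosome 2 to 263385 bp on chromosome 15, with a median of 91299 bp. Without a dnmt1 peak the longest stretch had a median of 49697 bp. On chromosome 10 the stretch of 120136 bp from 3623515 to 3743650 held 8 gained regions. On chromosome 9 the stretch of 96167 bp from 4253631 to 4349797 held 7. On chromosome 11 the stretch of 146577 bp from 2898987 to 3045563 held 5. Across the 17 windows these stretches held 54 regions, the 48 gained ones included. Those of chromosomes 2, 8, 14 and 15 held none.

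The peaks at gained regions covered a wide range of strength. Fold enrichment had a median of 4.25 in dnmt1 mt+ (range 1.65 to 7.94) and of 4.40 in dnmt1 mt− (range 1.53 to 8.26). Within the lists this placed the median gained member at percentiles of 32.2 and 30.1 of −log10 q, the significance the authors' peak caller gave each peak, in dnmt1 mt+ and dnmt1 mt−. Gained regions outside the windows were weaker, with medians of 2.05 and 2.22 and percentiles of 3.30 and 4.04 in the same lists. In the windows 21 of 107 ranked above the median of both dnmt1 lists, and outside 1 of 53 did so. That 1 was at chromosome 14, 2264868 to 2265871, with 6.64 in dnmt1 mt+ and 7.13 in dnmt1 mt−. In both dnmt1 lists 98 of the 107 reached a −log10 q of 10, as did 20 of 53 outside. Gained members were 240 to 1959 bp wide, with a median of 720 bp, where gained regions outside had a median of 416 bp.

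Fold enrichment at the gained members was alike in the knockouts of both strains. It was higher in dnmt1 mt+ at 51 regions and higher in dnmt1 mt− at 56, with a Pearson correlation of 0.885 across the 107 regions, which share their 2 libraries and are not independent. For the 53 gained regions outside the windows the correlation was 0.933, with 12 higher in dnmt1 mt+ and 41 higher in dnmt1 mt−. The likeness is thus not particular to the windows, and a gained region has a peak in both lists by definition. By window, the median was highest on chromosome 7 in dnmt1 mt+ (5.75) and on chromosome 16 in dnmt1 mt− (5.79). It was lowest on chromosome 11 in both, at 2.71 in dnmt1 mt+ and 2.40 in dnmt1 mt−. The highest values there, 3.39 in dnmt1 mt+ and 2.84 in dnmt1 mt−, came from different gained regions.

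**Figure D5:**
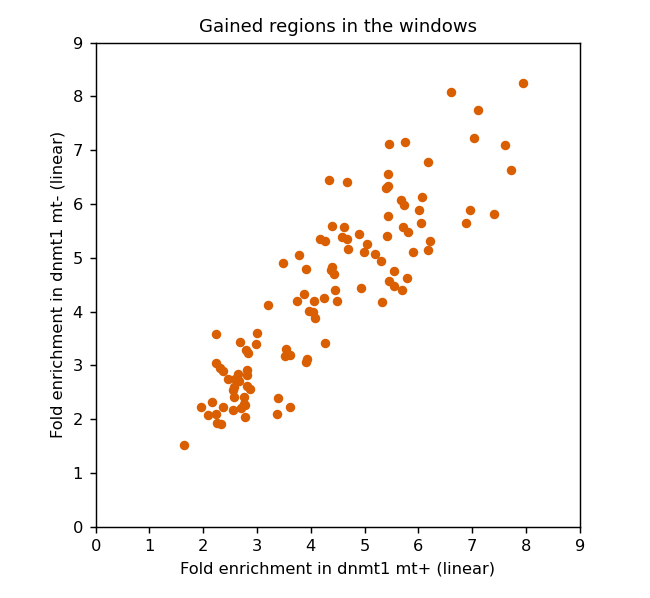
Fold enrichment, as the authors' peak caller gave it, of the 107 gained regions of the windows in dnmt1 mt+ (x axis) and in dnmt1 mt− (y axis), both on linear scales, with 1 point per region. Points run along the diagonal from 1.65 and 1.53 at the weakest to 7.94 and 8.26 at the strongest, with 51 higher in dnmt1 mt+ and 56 higher in dnmt1 mt−.

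The 10 gained members with the highest enrichment, by the lower of both dnmt1 values, lay on 8 chromosomes. Highest was the region of chromosome 6 from 4566839 to 4567886, with 7.94 in dnmt1 mt+ and 8.26 in dnmt1 mt−. It was at percentiles of 96.8 and 97.5 of those lists, and another of the 10 lay before it in the same window, from 4551702 to 4552908 (6.97 and 5.89). Chromosome 7 also had a pair. Its first, from 3097037 to 3098083, had 7.61 and 7.09, and its second, from 3144296 to 3145337, had 6.01 and 5.90 but percentiles of 93.3 and 90.5. Chromosome 1 had one from 1084711 to 1085748 (7.11 and 7.75), chromosome 10 one from 3631213 to 3632453 (7.03 and 7.23), and chromosome 17 one from 6274303 to 6275462 (7.71 and 6.63). On chromosome 3 the region from 6978559 to 6980092 had 6.61 and 8.09, on chromosome 16 that from 3442464 to 3443311 had 6.18 and 6.78, and on chromosome 12 that from 6656322 to 6657040 had 6.07 and 6.14. Neither WT list had a peak at any of the 10.

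Both lost members were weak. The one at chromosome 11, 2898541 to 2898986, had 2.75 (WT mt+) and 2.24 (WT mt−), and it forms the left border of the longest WT-free stretch of its window. The one at chromosome 5, 1819293 to 1819627, had 1.82 and 1.73, at percentiles under 1 in both WT lists. The members of WT mt+ alone were as weak, at chromosome 11, 2867762 to 2868070 (1.89), and chromosome 14, 790491 to 790713 (2.09). The member of both mt− libraries, at chromosome 4, 797521 to 797847, had 1.72 in dnmt1 mt− and 1.53 in WT mt−. The member of dnmt1 mt+ and WT mt−, at chromosome 10, 3871660 to 3872126, had 2.69 and 3.09. The 4 members of all but dnmt1 mt+, on chromosomes 1, 4, 8 and 17, ranged from 1.97 to 2.78 in the libraries that had them.

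Regions of a single knockout were weak too, whereas some regions missing from a single WT library were strong in the knockouts. Those of dnmt1 mt+ alone had a median fold enrichment of 2.20 (range 1.78 to 3.05) and those of dnmt1 mt− alone of 2.23 (range 1.80 to 4.10), and 0 ranked above the median of their list. The 7 regions in all but WT mt− had a median of 5.14 in dnmt1 mt+ and of 4.91 in dnmt1 mt−, against 2.60 in WT mt+, where 0 of the 7 ranked above the list's median. Of the 3 regions in all but WT mt+, that at chromosome 9, 4253046 to 4253880, had 6.77 in dnmt1 mt+ and 6.96 in dnmt1 mt−, at percentiles of 85.6 and 78.9, against 2.46 in WT mt−, at a percentile of 7.02. The other two were at chromosome 6, 4414251 to 4415050 (6.43, 5.97 and 4.91 in dnmt1 mt+, dnmt1 mt− and WT mt−), and at 4423673 to 4424335 (3.05, 3.09 and 2.92).

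Width itself did not enter the choice of windows, but a choice for few WT peaks may favour weak, narrow WT peaks. Widths were therefore compared as a description, after the counts were seen. The width of a list in a region is the summed width of its peaks there. Regions of all 4 libraries in the windows included some that were wider in the knockouts. Peaks in 26 of these 319 regions were at least 1.5 times as wide in both dnmt1 libraries as in WT of the same strain (8.15%), where over all numbered chromosomes 44 of 14235 (0.309%) met that rule. Outside the windows it was 18 of 13916 (0.129%). The reverse, narrower by the same factor in both strains, was met by 0 in the windows and 1 outside. Any gain in width in both strains was seen at 120 of 319 regions (37.6%), against 22.3% over all numbered chromosomes, and any loss in width in both strains at 81 (25.4%), against 28.2%. The median ratio of widths in the windows was 1.01 (mt+) and 1.02 (mt−), beside 0.988 and 1.00 outside. How many shared regions had nearly the same width was not counted.

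The 26 widened regions lay in 10 windows, with 5 each on chromosomes 1, 7 and 17. There were none in the windows of chromosomes 6, 8, 11 and 13, which had gained regions, and none in those of chromosomes 2, 14 and 15, which had no gained region. Their median width was 829 bp in dnmt1 mt+ and 889 bp in dnmt1 mt−, against 363 bp in WT mt+ and 380 bp in WT mt−. The median fold enrichment was 5.43 and 5.32 in dnmt1 mt+ and dnmt1 mt−, at percentiles of 63.4 and 56.4, against 3.13 and 3.04 in WT mt+ and WT mt−, at percentiles of 11.0 and 14.4. Enrichment and width come from the same peaks, and the regions were picked on width, so these values are a description. The region with the largest ratio, at chromosome 9, 4348821 to 4350223, was 1394 bp wide in dnmt1 mt+ and 1403 bp in dnmt1 mt−, against 236 bp in WT mt+ and 220 bp in WT mt−. It borders the WT-free stretch of that window with 7 gained regions. At chromosome 1, 1254232 to 1255308, the widths were 1077 and 1023 bp in dnmt1 mt+ and dnmt1 mt−, against 318 and 290 bp in WT mt+ and WT mt−. The widest member of all, at chromosome 17, 6153183 to 6157196, also met the rule, with 3961 and 3933 bp in dnmt1 mt+ and dnmt1 mt−, against 2001 and 1936 bp in WT mt+ and WT mt−. Whether these WT sums come from a single peak or from several was not examined. Widths and fold enrichments depend on the depth of a library and its control, whose part in these values was not tested.

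The strongest regions common to the 4 libraries had high values in every list. The first by lowest fold enrichment was at chromosome 7, 2948108 to 2948955, with 8.11 (mt+) and 8.42 (mt−) in the knockouts, against 8.42 (mt+) and 7.78 (mt−) in WT. That at chromosome 9, 4102051 to 4103352, had 8.74 and 8.05 in dnmt1 mt+ and dnmt1 mt−, against 8.35 and 7.77 in the WT lists of these strains. The other three, at chromosome 6, 4370461 to 4371569, chromosome 14, 618455 to 619480, and chromosome 3, 7028950 to 7030007, ranged from 7.62 to 8.52. Over all 319, the median percentile within the list was 56.8 in dnmt1 mt+ and 55.0 in dnmt1 mt−, against 48.8 in WT mt+ and 51.8 in WT mt−. For regions of all 4 libraries outside the windows these were 51.7, 52.9, 52.2 and 52.3. By fold enrichment the medians in the windows were 5.61 and 5.84 in dnmt1 mt+ and dnmt1 mt−, against 5.53 and 5.23 in WT mt+ and WT mt−. Outside they were 5.55 and 5.97 in the knockouts, against 5.76 and 5.50 in WT, so percentile and fold enrichment differ in direction for dnmt1 mt−.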

How the data were processed

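The authors deposited a narrowPeak list for each ChIP-seq library, called separately. Per the labels' protocols, formaldehyde (0.35%) was applied for 10 minutes before sonication, and an H3K4me1 data set used the same input control. The submitters' processing notes name MACS2 2.2.7.1 and Bowtie2 2.4.2, and further deepTools 3.5.1, Trim Galore 0.6.7 and Picard, without roles or options. The genome build is not given in the sources used here. The deposited columns hold the authors' −log10 q-value and −log10 p-value, their fold enrichment ratio, used here to describe and rank peaks within a list, and a score from the authors that was not used. The lowest −log10 q of each list lay between 2.01 and 2.17.

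Peaks were partners when they overlapped by at least 1 bp. Percentiles are ranks of −log10 q within a list. Coordinates are those of the lists, counted from 1. In 12 of 17 chromosomes peaks lay beyond the last gene of the gene table at hand (assembly v5.5), so no gene was assigned and no sequence printed. The windows, the patterns and the alternatives were chosen with earlier results of these data known, and the width comparison and the next-poorest windows after the counts were seen. Named regions are the 10 gained and 5 shared members and up to 5 lost members (there were 2) with the highest lowest fold enrichment of the libraries that define the class, the widest member, and all members of a pattern with 5 or fewer; the widened regions named were chosen after their values were seen. The counting was tested on simulated lists. Software was matplotlib 3.10.9, scipy 1.17.1, pandas 2.3.3 and numpy 2.4.6 under Python 3.11.15.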

Additional observations from a re-analysis of the deposited data

How the results depend on the processing

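The 8 results were recomputed in 78 alternative values, and 55 of these lay within 1.5 times the reported one, including all in which partners had to share 50% of the shorter peak and all with windows chosen on a single WT list. The gained regions (107) and gained peaks (120 in dnmt1 mt+, 129 in dnmt1 mt−) moved further under 2 choices of windows. Windows chosen on the dnmt1 lists held 22 gained regions, with 29 gained peaks in dnmt1 mt+, 35 in dnmt1 mt−, 14 lost from WT mt+ and 5 lost from WT mt−. The next-poorest windows held 2 gained and 0 lost regions, with 3 gained peaks in dnmt1 mt+, 14 in dnmt1 mt− and 5 lost from WT mt−. The other moves concern small counts of losses and window length. With summits within 200 bp there were 9 WT mt+ peaks of the lost-region pattern, 30 peaks lost from WT mt+ and 20 from WT mt−. Under the summit and 50% rules, mt+ peaks were counted in place of merged regions. These were dnmt1 mt+ peaks for gained regions and WT mt+ peaks for lost regions and regions of all 4 libraries. With 200 kb windows there were 1 lost region, 4 and 1 lost peaks (mt+ and mt−) and 144 regions of all 4 libraries, and with 500 kb windows 13 and 7 lost peaks and 701 regions of all 4, in fewer and more bases by construction. Lost peaks in the mt− strain numbered 6 with a −log10 q of at least 10, 5 with lists of equal length and 5 with windows chosen by the fewest covered bases. The cause of the other moves was not tested. No paired analysis was possible because the counts come from no test and each group has 1 library. The 2 strains do pair a knockout with WT, with 109 (mt+) and 125 (mt−) more peaks in the knockout over the windows. The whole mt+ lists held 14986 (dnmt1) and 14990 (WT) peaks, and the whole mt− lists 15323 (dnmt1) and 15065 (WT). However, 2 pairs cannot give a two-sided exact p below 0.5. Without read counts, peaks near the authors' threshold cannot be told from ones just under it.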
